A study of Mus musculus with 13 samples.

Results

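Of 133768 genomic regions with acetylated histone H3 lysine 27 (H3K27ac) in differentiating C2C12 cells, 1036 (0.774%) appeared by 6 h of differentiation and were kept. The region set joins peaks that share at least 1 bp in any of the 7 wild-type time course libraries. The 1036 were chosen by the presence of peaks: none at -24 and 0 h, and a peak in each of the lists of 6, 12, 24 and 72 h. A 48 h peak was neither required nor barred, but the wild-type 48 h list helped to draw the regions: without it there were 1200 members. The 5 edited lines took no part. Presence at those 6 times is therefore given as a description and not as a finding.

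C2C12 is a mouse myoblast line that was grown in fetal bovine serum and differentiated in a low level of horse serum. Unedited cells were sampled at -24 and 0 h relative to the switch of medium, and again 6, 12, 24, 48 and 72 h later. At 48 h, 5 edited C2C12 lines made with CRISPR/Cas9 were also profiled. The Myod1 knockout was made to lack MyoD. The H1 and H3 lines each carried a deletion of a region that the submitters call a hotspot. The H23 line was made by deleting H3 in a line already lacking H2, and the H34 line by deleting H3 in a line already lacking H4. Each condition had 1 library and each edit is represented by 1 line, so an edit and other differences of its line cannot be told apart. No test between libraries was possible. With no annotation of the files' genome build (mm9) in use, the Myod1 locus and muscle marker genes were not used to check the labels, and no gene is named from a position. Intervals are 95% Wilson intervals for shares and 95% Newcombe intervals for differences between shares. They cover counting error only, since neighbouring regions are not independent.

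H3K27ac is placed by the acetyltransferases p300 and CBP and marks active promoters and enhancers. MyoD is a basic helix-loop-helix factor that binds E-box motifs, recruits these enzymes and drives the muscle program. FoxO3, also named in the study's title, is a forkhead factor of growth factor signalling that enters the nucleus when such signalling falls. When serum is withdrawn, confluent myoblasts leave the cell cycle, switch on muscle genes and later fuse into myotubes.

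The 12 peak lists held from 55585 peaks (Myod1 knockout) to 137960 peaks (H1 line), and read depth was unknown. The 4 hotspot lists reached down to a −log10 p of 3.01 to 3.03, against 4.13 in the wild-type and 4.02 in the knockout list at 48 h. The Myod1 knockout list covered 18.3 Mb, against 45.4 Mb in wild type at 48 h and 58.4 to 81.5 Mb in the hotspot lines. These list lengths move with the shares given below, and their part in them was not tested. Where a share among all 133768 regions is given, it is the background for the members' share.

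The members were of moderate width and came from weak to middling peaks. Their median width was 580.5 bp, with quartiles of 406.5 and 855.5 bp and a range of 149 to 3765 bp. Constant regions, with a peak at all 6 times, had a median of 1097 bp. Regions gained only from 24 h, with no peak until 24 h and one at 24 and 72 h, had a median of 315 bp. Regions with a peak at 6 and 12 h only had a median of 273 bp. A wider merged region has more chances to meet a peak of each list, so width and the number of lists required cannot be told apart here.

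The authors' peak score, which has no stated unit, had medians of 9.17, 10.7, 8.40 and 9.39 over the members' strongest peaks in the 6, 12, 24 and 72 h lists. As a percentile of its own list, the median member ranked 31.8, 49.4, 41.2 and 44.9 in the same order of lists. Among the strongest 25% of peaks there was 1 member in the 6 h list and there were 86 in the 72 h list. These lists differ in length, so the percentiles describe each list and do not show a change. Members' peaks covered 269.9, 377.4, 260.8 and 357.9 kb in the 4 lists. The 24 h list had the narrowest peaks of the time course, with a median of 203 bp.

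The rule sits close to its limits for a part of the members. The lowest of the 4 scores was under 5 in 76 members (7.34%) and at least 10 in 69 (6.66%), where no peak of the lists scores under 4. Just outside the rule lay 2916 regions that also had a peak at 0 h and 297 that also had one at -24 h. A further 1148 regions lacked only the 6 h peak, 884 only the 72 h peak, 638 only the 24 h peak and 145 only the 12 h peak. With 6 lists there are 15 ways to have a peak in exactly 4 of them. The members' pattern was the third most frequent of these, after 3492 regions with peaks from -24 to 12 h and 1324 with peaks from 0 to 24 h. The patterns of consecutive times were thus the most frequent of the 15.

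Most members lay beside chromatin that was already acetylated before the medium change. The gap to the nearest -24 or 0 h peak was at most 1 kb in 563 members (54.3%, 51.3 to 57.4) and at most 5 kb in 795 (76.7%, 74.1 to 79.2). Only 91 members (8.78%) were at least 20 kb from such a peak. The median gap was 774.5 bp. Regions gained from 24 h lay further away, with a median gap of 2256 bp and 62.8% (59.5 to 66.0) within 5 kb. Regions with a peak at 6 and 12 h only lay nearer, at a median of 469 bp and 82.5% (81.0 to 84.0) within 5 kb. The share over all regions with no -24 or 0 h peak is not given here. These values therefore cannot show that closeness to an older peak is particular to members. With peaks within 1 kb merged there were 497 members, and 37.2% of those had such a peak within 5 kb, since many members were then joined to an older neighbour.

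**Figure D1:**
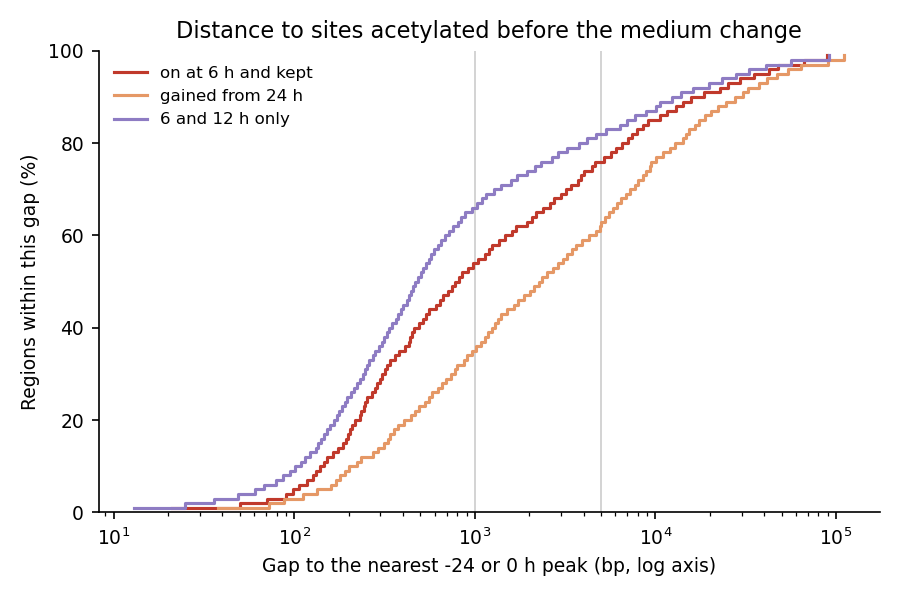
Cumulative share of regions (vertical axis, %) against the gap to the nearest peak of the -24 or 0 h list (horizontal axis, bp, log scale), with grey lines at 1 and 5 kb. The line of members runs between that of the 6 and 12 h only set, whose regions lie nearer to older peaks, and that of regions gained from 24 h, which lie further away.

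Members were spread over the genome, with a few tight runs. The nearest other member was at most 50 kb away for 349 of 1036 (33.7%, 30.9 to 36.6), and the median gap was 171.5 kb. The same share was 31.5% (28.4 to 34.7) for the 836 regions gained from 24 h and 36.8% (34.9 to 38.7) for the 2371 with a peak at 6 and 12 h only, and it depends on the number of regions in a set. Joining members within 50 kb left 687 on their own, 106 pairs and 38 runs of at least 3 that held 137 members. By chromosome, members numbered from 5.67 per 1000 regions on chromosome 14 to 10.1 on chromosome 15, against 7.74 over the genome. Chromosome 15 held 82 members and chromosome 2 held 84.

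The largest run held 6 members in 7.29 kb of chromosome 1 (mm9), at 121149682 to 121156972. Of these 6, 2 had a peak in wild type at 48 h, 2 in the H34 line, and none in the Myod1 knockout or the H1, H3 and H23 lines. No constant region lay inside it. A further 5 runs had 5 members each. The H1 list held a peak for all 5 members of the chromosome 4 run (11898906 to 11931540), the wild-type and H3 lists for 3 each and the H23 and H34 lists for 4 each. The knockout list held none. In the chromosome 13 run (52213650 to 52272403) the H1 and H3 lists held all 5, the wild-type list 3, the H23 and H34 lists 2 each and the knockout list none. The run on chromosome 5, at 64677853 to 64716751, had 1 member with a knockout peak, and so did that on chromosome 10, at 59820083 to 59864357. The widest of these runs, on chromosome 16 at 33862324 to 33943156, had 1 member with a wild-type peak, 4 with a peak in H1, 4 in H23 and 3 in H34, and none in H3 or the knockout. It ties with the others in size and was added after its values were seen.

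The state at 48 h was not required of the members, but for wild type it is not independent of the rule. No member can have a wild-type peak that touches a -24 or 0 h peak, since such a peak would have joined the member to it, and the full region set includes regions found at 48 h alone. The wild-type shares are therefore a description. In wild-type cells 575 of 1036 members (55.5%, 52.5 to 58.5) had a peak, against 47.7% of all regions. With regions drawn without the 48 h list, 61.6% of 1200 members had one, against 46.8% of 131291 regions. The remaining 461 had peaks at 24 and 72 h and none at 48 h. The 48 h list has another format and other cutoffs than the lists at 24 and 72 h, and time and format cannot be told apart. Members had a wild-type peak more often than regions gained from 24 h, of which 39.2% did, a difference of 16.3 percentage points (11.7 to 20.7). They had it less often than constant regions, at 88.5%, a difference of -33.0 points (-36.0 to -29.9). By distance from older peaks, presence was 50.3% (46.1 to 54.4) under 1 kb, 57.3% (50.9 to 63.5) from 1 to 5 kb, 70.7% (62.9 to 77.4) from 5 to 20 kb and 58.2% (48.0 to 67.8) beyond 20 kb.

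Where members had a peak at 48 h, its rank depended on the list. Their median percentile in the wild-type list was 51.9, and 136 of the 575 (23.7%) reached its strongest 25%. The median percentile was 34.1 in the knockout list and 76.7, 67.9, 68.6 and 69.5 in the H1, H3, H23 and H34 lists, and 51.1% of the members with an H1 peak were in the strongest 25% of that list. The lists differ in length and cutoff, so these ranks show no change between libraries. The wild-type fold enrichment at the summit, the authors' value, ranged from 3.01 to 28.4 with a median of 6.71. The H1 list held a peak for 857 members (82.7%, 80.3 to 84.9), against 60.2% of all regions. The H34 list held 727 (70.2%, 67.3 to 72.9) against 59.4%, the H23 list 695 (67.1%, 64.2 to 69.9) against 59.9% and the H3 list 670 (64.7%, 61.7 to 67.5) against 49.8%. The Myod1 knockout list held 276 (26.6%, 24.0 to 29.4) against 24.8%. By these counts the H1 list exceeded its background by the most, and the knockout list was close to its own. Members were chosen for peaks in several lists, whereas the background includes regions with peaks in fewer. The H1 list was also the longest and the knockout list the shortest. The part of the rule and of list length in these differences was not tested, so they cannot show a trait of members. The same limit holds for the members without a wild-type peak. Of the 461 members without a wild-type peak, 305 (66.2%) had a peak in H1, against 39.0% of all such regions. The H3 list held 199 of the 461 (43.2%, background 28.2%), the H23 list 218 (47.3%, background 40.4%), the H34 list 238 (51.6%, background 39.3%) and the knockout list 60 (13%, background 8.25%).

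**Figure D2:**
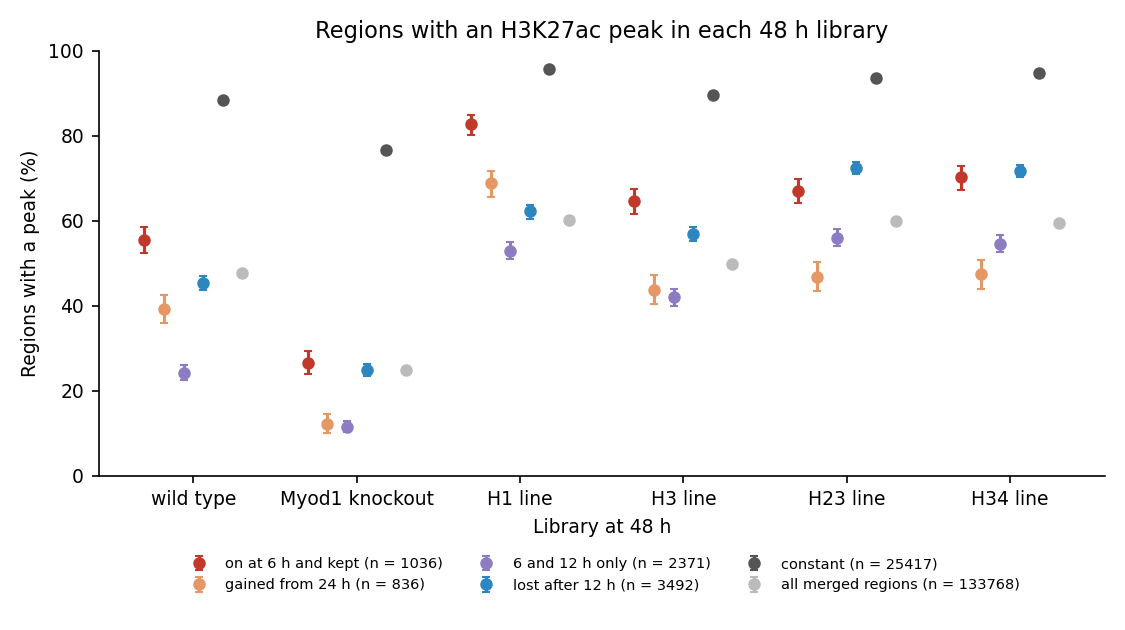
Share of regions with a peak (vertical axis, %) in each 48 h library (horizontal axis) for members, the 4 compared sets and all merged regions, with 95% Wilson intervals. Members reach 82.7% in the H1 line, 55.5% in wild type and 26.6% in the Myod1 knockout, where they lie near the 24.8% of all regions.

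The Myod1 knockout addresses how acetylation depends on MyoD. Of the 575 members with a wild-type peak, 359 (62.4%, 58.4 to 66.3) had no knockout peak and 216 kept one. Over all regions with a wild-type peak the share without a knockout peak was 57.1%, near the members' share. That background includes regions with older peaks, which the rule bars for members. Among the 26193 regions with a wild-type peak and no -24 or 0 h peak the share was 86.3%, above that of the members. Regions found at 48 h alone are part of that set. Constant regions lacked a knockout peak in 18.3% of cases (17.8 to 18.8), a difference of 44.2 points (40.1 to 48.1). Regions gained from 24 h lacked it in 78.7% (73.9 to 82.7), so members lacked it less often, by -16.2 points (-22.0 to -10.1).

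Regions with the reverse history gave a share close to that of the members. The 3492 regions with a peak from -24 to 12 h and none at 24 and 72 h, called lost after 12 h below, included 1584 with a wild-type peak at 48 h. The name refers to the lists of 24 and 72 h only, since these 1584 (45.4%) did have a peak at 48 h. Of those, 995 (62.8%, 60.4 to 65.2) had no knockout peak, a difference from members of -0.381 points (-5.04 to 4.17). Over the 15 patterns of exactly 4 peaks in 6 lists, the share without a knockout peak ran from 60.8% to 75%, and members had the third lowest. The members' share thus lay within the range of regions with other histories and as many peaks. Members were the widest of the 15 patterns, at a median of 580.5 bp against 365.5 to 497 bp, and the part of width was not tested. The knockout list was the shortest of the 12, and with the same number of strongest peaks in every list 46.7% of members lacked a knockout peak, against 49.5% of all regions.

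Members exceeded constant regions in each of the 4 width classes and each of the 4 percentile classes of the wild-type list. Among regions under 500 bp, 76.0% of members (95 of 125) and 29.2% of constant regions lacked a knockout peak, and at 1200 bp or more 41.0% (48 of 117) and 13.5% did. In the weakest 25% of the wild-type list the shares were 77.4% (67.9 to 84.7) and 49.3% (46.5 to 52.1), and in the strongest 25% they were 41.9% (34 to 50.3) and 8.74% (8.26 to 9.25). Against regions gained from 24 h the members were lower at each width, with differences from -17.8 points (-30.7 to -2.17) at 800 to 1200 bp to -8.32 (-18.0 to 2.45) at 500 to 800 bp. The interval left out 0 at 800 to 1200 bp and reached 0 in the other 3 width classes. The width of the members therefore moves with this difference, and its part was not tested. It left out 0 in the 2 stronger percentile classes of the wild-type list, at -16 (-26.5 to -4.16) and -19.5 (-34.6 to -2.48).

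**Figure D3:**
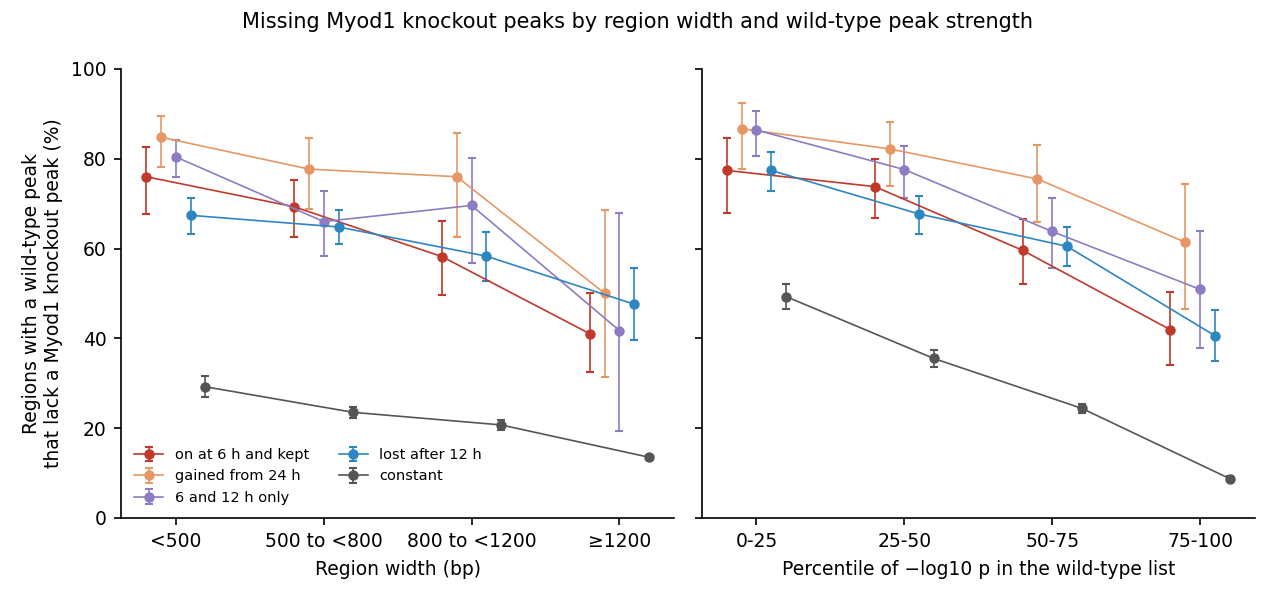
Share of regions with a wild-type peak that lack a Myod1 knockout peak (vertical axis, %) by region width in bp (left) and by percentile of −log10 p in the wild-type list (right), with 95% Wilson intervals. Members fall from 76.0% in the narrowest to 41.0% in the widest class, and constant regions from 29.2% to 13.5%.

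The share of members without a knockout peak was 62.5% (56.8 to 68.0) under 1 kb from a -24 or 0 h peak, 63.9% (55.5 to 71.6) from 1 to 5 kb, 59.4% (49.9 to 68.3) from 5 to 20 kb and 64.2% (50.7 to 75.7) beyond 20 kb. These intervals overlap. Members also differed from the constant regions beside them. Of 516 members within 5 kb of a constant region, 248 had a wild-type peak in both. In the knockout 84 of these pairs kept both, 114 (46.0%) lacked only the member's peak, 10 lacked only the neighbour's and 40 lacked both. In the hotspot lines, too, the member's peak alone was missing more often than the neighbour's alone, in 6 pairs against 3 for H1, 32 against 4 for H3, 30 against 1 for H23 and 28 against 2 for H34. In these 248 pairs the neighbours were wider, with a median of 1452 bp against 713 bp for the members. Knockout peaks were small where present and covered a median of 30.9% of the member, against 83.6% for wild-type peaks. In constant regions the medians were 44.5% and 83.2%, so low coverage by the knockout list was not particular to members. Wild-type peaks also helped to draw the regions, and knockout peaks did not.

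Where members lay close together, they did not always share the knockout state. Among 76 adjacent pairs within 50 kb with a wild-type peak in both, 36 had no knockout peak in either, 7 had one in both and 33 had one in only 1 of the pair. By chromosome, the share of wild-type-positive members without a knockout peak ranged from 35.4% on chromosome 15 (17 of 48) to 86.4% on chromosome 13 (19 of 22). Chromosome 15, which held the most members per region, thus had the lowest share. The share over all regions of each chromosome is not given here, so these values describe the counts and cannot show a trait of members.

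The hotspot deletions address how acetylation depends on regulatory regions that the study calls hotspots. Of the 575 wild-type-positive members, 23 (4.0%, 2.68 to 5.93) had no peak in the H1 line, against 16.6% of all such regions. In the 3 lines without H3 the counts were 104 (18.1%, 15.2 to 21.4) for H3, 98 (17.0%, 14.2 to 20.3) for H23 and 86 (15.0%, 12.3 to 18.1) for H34, against 26.5%, 18.7% and 18.6% of all such regions. Each of the 4 shares was below its background, but this did not hold in every line under other settings. With the same number of strongest peaks in every list H23 stood at 26.8% against a background of 25.9%. With peaks required to cover 25% of the region H23 stood at 23.3% against 20.8% and H34 at 22.2% against 21.1%. Over the 15 patterns of exactly 4 peaks in 6 lists, the share without an H1 peak ran from 4.0% to 19.9%. The members had the lowest, followed by 5.77% of 104 regions with peaks at -24, 0, 12 and 72 h. Only the members' pattern has neither a -24 nor a 0 h peak. With H1 peaks that touch a -24 or 0 h peak not counted, the members' share was 17.9%. That setting was not run for the other patterns, so the rank is given with such peaks counted. A peak in H1 but not in H3 was found in 88 members and the reverse in 7. For H1 against H23 the counts were 85 and 10, and for H1 against H34 they were 76 and 13. Between H3 and H23 they were 38 and 44. Such counts over all wild-type-positive regions are not given here. The H1 list was the longest, and H1 also had the lowest share without a peak over all such regions. These counts therefore describe the members and cannot show a trait of them.

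Some members were met by line peaks that reach over from older acetylation. Of the 857 members with an H1 peak, 141 (16.5%) were met only by H1 peaks that also overlapped a -24 or 0 h peak. The same was true of 20.9% in H23, 14.5% in H3, 13.8% in H34, 1.81% in the knockout and none of the 575 in wild type, whose peaks had been merged. With such peaks not counted, the share of wild-type-positive members without a peak was 17.9% for H1, 28.3% for H3, 33.7% for H23, 23.8% for H34 and 62.8% for the knockout. Over all 26193 regions with a wild-type peak and no -24 or 0 h peak, the same setting gave 37.8%, 51.7%, 46.3%, 44.2% and 86.8%, and with all line peaks counted 30.5%, 44.8%, 34.6%, 36.0% and 86.3%. With the same number of strongest peaks in every list the shares were 15.0%, 27.9%, 26.8% and 27.3% for H1, H3, H23 and H34, against backgrounds of 29.2%, 31.9%, 25.9% and 28.7%. Among members, H1 had the lowest share of the 5 lines in each case. Over the 26193 regions H1 was also the lowest in both settings. With the same number of strongest peaks its background of 29.2% was above those of H23 and H34. With peaks required to cover 25% of the region the H1 share was 6.23%, against a background of 19.5%, and the knockout share was 76.3%, against 67.0%.

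Members and regions lost after 12 h differed in opposite directions between lines, and the difference between lines was not tested. In H1, members lacked a peak less often, at 4.0% against 16.5% (14.8 to 18.5), a difference of -12.5 points (-14.9 to -9.94). In H23 they lacked it more often, at 17.0% against 11.2% (9.77 to 12.9), a difference of 5.81 points (2.51 to 9.41). In H34 the shares were 15.0% and 9.41% (8.07 to 10.9), a difference of 5.55 points (2.46 to 8.97). In the H3 line, which shares the H3 deletion with these, the sign was that of H1, at -5.08 points (-8.71 to -1.17). The comparison of members with regions lost after 12 h was chosen after the data were examined. The differences for H1, H3, H23 and H34 kept their sign in all 8 alternatives, but the H3 interval reached 0 in 3 of them. The 8 did not include the setting in which line peaks touching a -24 or 0 h peak were not counted. Regions lost after 12 h hold such older peaks themselves, so it was not applied to them. In it the members' shares were 17.9% for H1 and 28.3% for H3. These lie above the 16.5% and 23.2% of regions lost after 12 h with all line peaks counted. The part of such peaks in the H1 and H3 signs was not tested.

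**Figure D4:**
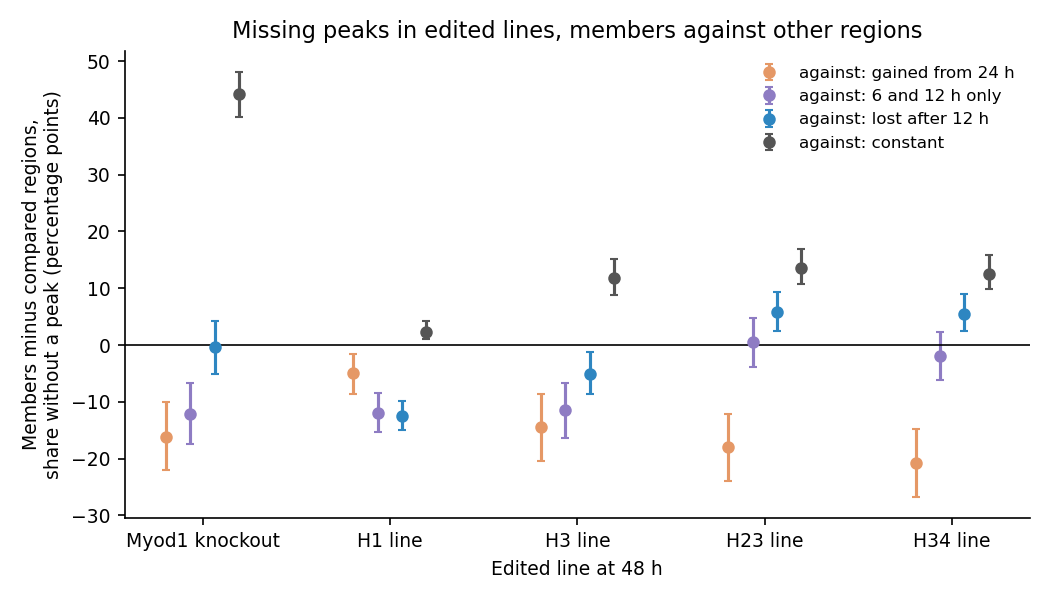
Share of wild-type-positive regions without a peak in each edited line, members minus each compared set (vertical axis, percentage points), with 95% Newcombe intervals and a line at 0. Against regions lost after 12 h, members lie below 0 in H1 and H3, at -12.5 and -5.08, and above 0 in H23 and H34, at 5.81 and 5.55.

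Within the classes of width, the H1 difference from regions lost after 12 h ran from -13.1 points at 500 to 800 bp to -9.36 below 500 bp, and its interval left out 0 in all 4. For H3 the difference was 0.506 (-7.35 to 9.51) below 500 bp and -0.382 (-6.83 to 6.76) at 500 to 800 bp. It was -6.25 (-13.3 to 1.92) at 800 to 1200 bp and -12.7 (-20.0 to -5.27) at 1200 bp or more, and by percentile of the wild-type list its interval reached 0 in all 4 classes. For H23 and H34 the interval left out 0 only in the 2 narrower of the width classes. Below 500 bp they were 8.63 (1.45 to 17.1) and 8.30 (1.52 to 16.5), and at 500 to 800 bp 10.8 (4.81 to 17.5) and 10.1 (4.53 to 16.5). At 800 to 1200 bp they were 4.45 (-1.22 to 11.5) and 3.70 (-1.84 to 10.6), and at 1200 bp or more 0.209 (-6.29 to 7.28) and 1.22 (-4.42 to 7.56). By percentile of the wild-type list, the H23 interval reached 0 only in the class from 50 to 75, and the H34 interval only from 25 to 50. In the strongest 25% the differences were 5.64 (1.32 to 11.6) for H23 and 5.57 (1.89 to 11.1) for H34. Against constant regions members lacked a peak more often in all 4 lines, from 2.34 points (1.01 to 4.27) in H1 to 13.6 points (10.7 to 16.9) in H23. Against regions gained from 24 h they lacked it less often, by -4.84 points in H1 and -20.7 in H34.

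Across the 6 lists at 48 h, the 2 most frequent patterns held 20.4% and 18.2% of the members. In 211 members there was a peak in wild type and in the 4 hotspot lines and none in the Myod1 knockout, and 189 had a peak in all 6. The former were 36.7% (32.9 to 40.7) of the wild-type-positive members, against 22.7% of all wild-type-positive regions, 12.6% of constant regions, 27.7% of those gained from 24 h, 34.7% (32.4 to 37.0) of those lost after 12 h and 38.2% (34.3 to 42.2) of those with a peak at 6 and 12 h only. A further 81 members (7.82%) had a peak in the 4 hotspot lines alone and 58 (5.6%) in H1 alone. None of the 6 lists held a peak for another 81 (7.82%). In the same order the shares were 6.58%, 10.4% and 17.5% of regions gained from 24 h. They were 9.83%, 6.03% and 22.8% of those with a peak at 6 and 12 h only. For regions lost after 12 h they were 7.59%, 2.69% and 12.2%, and for constant regions 2.07%, 0.669% and 1.43%. A peak in all 6 was found in 70.0% of constant regions and 4.89% to 14.3% of the other compared sets. A peak in wild type and H1 with none in H3, H23 and H34 was found in 27 members (4.70%, 3.25 to 6.75), against 4.92% of all wild-type-positive regions and 12.5% (9.35 to 16.5) of those gained from 24 h. Of these 27, 26 (96.3%) also had no knockout peak, against 97.1% of the 3144 regions of this pattern in the whole set and 62.4% of all wild-type-positive members. A peak in H34 alone of the 4 hotspot lines was found in 5 wild-type-positive members, in H23 alone in 2 and in H3 alone in none. The shares of these single-line patterns over all regions are not given here, so the counts are a description.

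**Figure D5:**
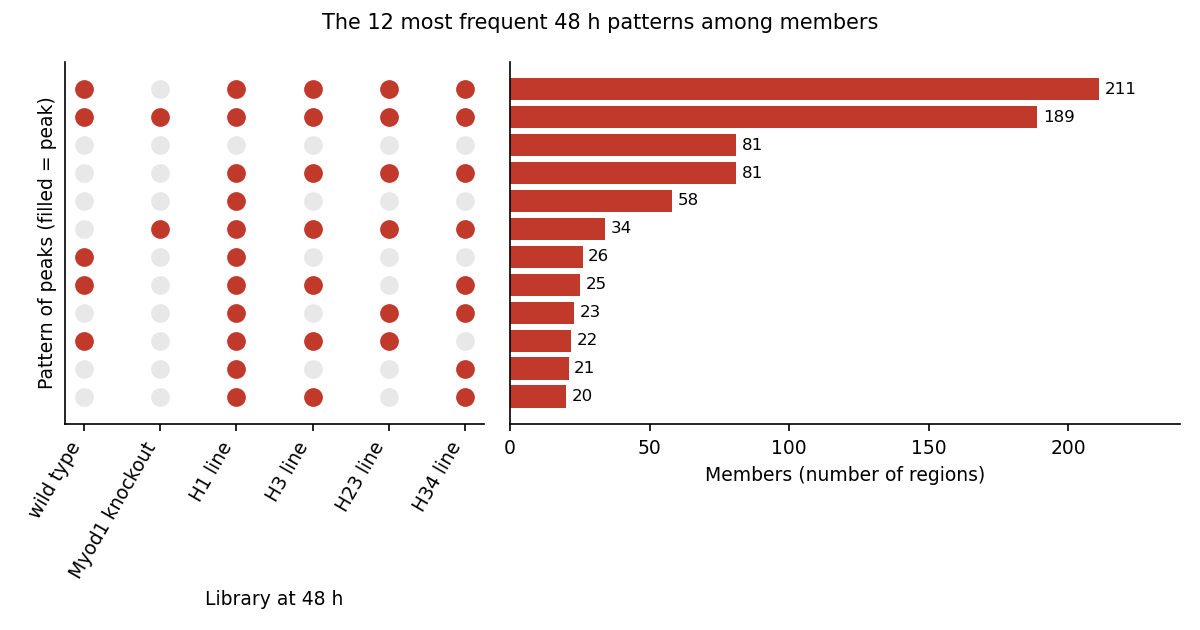
The 12 most frequent combinations of peaks in the 6 libraries at 48 h (left, filled circles mark a peak) and the number of members with each (right, bars). The most frequent has a peak in wild type and the 4 hotspot lines and none in the Myod1 knockout, with 211 members, followed by a peak in all 6, with 189.

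The widest member lay on chromosome 15 at 75295952 to 75299716 and measured 3765 bp. Its scores at 6, 12, 24 and 72 h were 6.49, 7.87, 6.36 and 13.1. Fold enrichments of different libraries are each on their own scale and are listed without a comparison. Its fold enrichment at 48 h was 16 in wild type, 7.95 in the Myod1 knockout and 6.70 in H1. The H3, H23 and H34 lists gave 14.2, 14.1 and 14. It lay 74680 bp from the nearest -24 or 0 h peak. H1 peaks covered 39.3% of it, against 100% in wild type and 80.5% to 96.6% in the lines without H3, whereas over all members with a peak the median covered was 89.2% in H1 and 80.8% to 87.0% in those lines.

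The second widest lay on chromosome 11 at 5454187 to 5456797, 8664 bp from an older peak, and had a peak in all 6 libraries at 48 h. Its scores at 6, 12, 24 and 72 h were 10.8, 14.6, 8.40 and 9.39. The next, on chromosome 6 at 125107121 to 125109711, was 863 bp from an older peak and had no knockout peak. Its fold was 14.5 in wild type, 13.6 in H1 and 15.5 in H3, and 5.86 and 7.22 in H23 and H34. The fourth, on chromosome 1 at 136089946 to 136092534, also lacked a knockout peak and lay 91244 bp from the nearest older peak. It had a fold of 15.9 in wild type and 24.1 in H23, whereas H34 peaks covered 8.0% of it.

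The fifth widest spanned 89534845 to 89537426 of chromosome 12, and the next spanned 46445608 to 46448051 of chromosome 14. The last pair spanned 163238860 to 163241266 of chromosome X and 32154995 to 32157306 of chromosome 17. Those on chromosomes 14 and X had no knockout peak, and the X chromosome one had none in H23 either. On chromosome 17 the scores in time order were 7.41, 17.3, 19.1 and 37.0, the last being the highest score of any member at 72 h. This member had a fold of 27.6 in wild type, and a knockout peak covered 5.62% of it. Of the 8 widest members, 4 thus had no knockout peak, and each of the 8 had a peak in wild type, H1, H3 and H34.

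Of the 6 members with the highest mean percentile over the 6, 12, 24 and 72 h lists, 4 had no knockout peak, near the 62.4% of all wild-type-positive members. The first, on chromosome 15 at 81985376 to 81986826, had scores of 19, 29.1, 24.2 and 25.4 at those times and lay 301 bp from an older peak. The second, on chromosome 12 at 85482249 to 85484269, had scores of 22.4, 21.6, 17.6 and 19.2. The third was on chromosome 9 at 121685853 to 121686704, with a fold of 20.1 in wild type and 5.17 in H23. The fourth was on chromosome 16 at 30474860 to 30475586. None of these 4 had a knockout peak. The fifth, on chromosome 17 at 47654631 to 47655881, had a fold of 13.4 in wild type and 6.48 in the knockout. The sixth, on chromosome 14 at 31892801 to 31895037, had 16.4 and 5.30.

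Among the members with a peak in wild type and all 4 hotspot lines and none in the knockout, the 5 widest included those already described on chromosomes 6, 1, 14 (at 46445608) and 12 (at 85482249). The other was on chromosome 2 at 4282621 to 4284735, with a fold of 10.4 in wild type and of 8.67, 8.01, 10.6 and 5.05 in the H1, H3, H23 and H34 lists. The widest member with a peak in wild type and H1 and none in the 3 lines without H3 lay on chromosome 14 at 15674339 to 15676528, with a fold of 17.3 in wild type and 7.85 in H1. Its scores were 6.89, 8.30, 7.46 and 10.7 at 6, 12, 24 and 72 h, and it was 8708 bp from an older peak. The next of this pattern spanned 188518972 to 188520115 of chromosome 1 and 163306370 to 163307340 of chromosome 2. Narrower still were 91565115 to 91565973 of chromosome 6 and 27255986 to 27256828 of chromosome 17. In these 4 the wild-type fold was 3.89 to 10.6 and the H1 fold 3.30 to 6.19. All 5 also lacked a knockout peak.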

How the data were processed

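H3K27ac peak lists of 12 of the 13 labelled samples were analysed. The library labelled as CRISPR control was not analysed here. Peaks were called with MACS2 2.1.0 against mm9, per the submitters' processing notes. Aligner, filters, control library and cutoffs are not given in the sources used here. The deposited lists of 6 times have 5 columns ending in a score of unstated unit. The 6 deposited lists at 48 h have 10, among them fold enrichment, −log10 p and −log10 q. Their score, as deposited, is 10 times the −log10 p. Depth is unknown.

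Peaks sharing 1 bp were merged over 7 lists, and a region had a peak where it shared 1 bp with it. Scores, folds and −log10 p were compared only within a list. Members and lists were chosen with earlier results of these data known. Named were the 8 widest members, the 6 of highest mean score percentile, the 5 widest of 2 patterns at 48 h and the 5 runs of most members (ties by smaller span), without chromosome 18. A tied run on chromosome 16 was added. The alternatives changed the overlap, thresholds, list length, merging distance and width. No mm9 genome or annotation was used, so no gene is named from a position, no sequence is shown and the planned gene lists and motifs were not run. Coordinates count from 1 in mm9. The comparison with regions lost after 12 h, and the setting in which line peaks touching a -24 or 0 h peak were not counted, were added with the data in view. The class code was tested on 20000 simulated regions and recovered 1000 of 1000 members. Python 3.11.15, numpy 2.4.6, pandas 2.3.3, scipy 1.17.1 and matplotlib 3.10.9 were used.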

Additional observations from a re-analysis of the deposited data

How the results depend on the processing

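Of 141 recomputed values over 17 results, 82 moved by less than the counting interval or the count limit, 57 moved by more and 2 changed sign. The cause was not tested. No paired analysis was possible because each condition has 1 library. Depth is unknown, and weak peaks near a list's cutoff limit every call of presence or absence.

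The number of members was 1674 with 24 h not used, 575 with a wild-type peak also required at 48 h, 473 with no -24 or 0 h peak within 1 kb, 624 with peaks covering at least 25% of the region, 497 with peaks within 1 kb merged and 630 among regions of at least 500 bp.

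With 25% coverage required, the median width was 448 bp, 28.5% had another member within 50 kb and 41.2% had a wild-type peak at 48 h. The shares without a peak for the knockout, H1, H3, H23 and H34 were 76.3%, 6.23%, 25.3%, 23.3% and 22.2%. The knockout difference was 49.5 points from constant regions and 5.40 from regions lost after 12 h, the latter with its sign reversed. The differences from regions lost after 12 h in H1, H3, H23 and H34 were -15.9, -0.988, 9.76 and 10.2.

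With 55585 strongest peaks in every list, the median width was 728 bp, 28.6% had another member within 50 kb, 65.8% an older peak within 5 kb and 58.9% a wild-type peak. The shares without a peak in the same order were 46.7%, 15.0%, 27.9%, 26.8% and 27.3%. The knockout difference from constant regions was 34.3 points and the H1 difference from regions lost after 12 h was -19.1.

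With peaks within 1 kb merged, the median width was 1605 bp, 12.1% had another member within 50 kb, 37.2% an older peak within 5 kb and 68.6% a wild-type peak. The knockout difference from regions lost after 12 h was 1.61 points, with its sign reversed. Without the 48 h wild-type list in the merging there were 1200 members, and these values were 447 bp, 40.6%, 81.0% and 61.6%. Among regions of at least 500 bp they were 763.5 bp, 25.2%, 74.0% and 71.4%. With no -24 or 0 h peak within 1 kb, the median width was 627 bp, 23.7% had another member within 50 kb and 61.7% a wild-type peak.

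With line peaks that touch a -24 or 0 h peak not counted, the shares without a peak for the 4 hotspot lines in that order were 17.9%, 28.3%, 33.7% and 23.8%. With a −log10 p of at least 5 at 48 h, they were 6.27% for H1 and 18.5% for H34, and the H1 difference from regions lost after 12 h was -15.8. That difference was -15.5 with a score of at least 5 or q under 0.001. Another member lay within 10000 bp for 17.1% and within 200000 bp for 52.3%, and an older peak within 2 kb for 63.5% and within 20 kb for 91.2%.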
